A study of Gallus gallus with 6 samples.

Results

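Chromosomes 6 and 8 are a pair of mid-sized chicken autosomes. The 2639 regions described here are the places on them with a peak in every TCF21 immunoprecipitation list of the study. Peaks sharing 1 bp or more across lists were merged, and a merged region was kept, and is called reproducible, where it held a peak of all 3 lists. Chromosome 6 gave 1465 such regions and chromosome 8 gave 1174, of 37420 in the whole series. No measured strength entered that choice, apart from the limit above which the authors' lists hold a peak.

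TCF21 is a basic helix-loop-helix transcription factor, which pairs with a related partner protein and binds short DNA motifs called E-boxes. In mouse and human it marks mesenchymal and fibroblast-like cells, and in adipose tissue it is known from preadipocytes, the precursors of fat cells. Chromatin immunoprecipitation followed by sequencing (ChIP-seq) maps such binding as places where the precipitated DNA fragments stack up above the level of unprecipitated chromatin. Chicken chromosomes range from a few large macrochromosomes to many small, gene-rich microchromosomes, and chromosomes 6 and 8 lie between those extremes.

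The study asked where TCF21 binds in chicken preadipocytes. It holds 3 TCF21 immunoprecipitations and 3 input DNA samples, all from adipose-derived preadipocytes that stably overexpress TCF21 from the construct LV-TCF21 and spent 24 h in differentiation medium, which contained 300 µM oleic acid. The immunoprecipitations used an antibody against the HA epitope, and the labels do not state that the construct carries this tag. Binding of the cells' own TCF21 was not measured separately. All groups carry the construct and received oleic acid, so no sample shows these chromosomes without either. The labels do not say whether samples came from separate cultures. The SDs below measure the spread between these lists, which may be technical, and the p-values rest on the same lists.

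Each immunoprecipitation gave a peak list of its own. Lists 1, 2 and 3 are named by the number in their peak names, which was not matched to a replicate number of the labels. List 1 held 2278 peaks on chromosome 6 and 1855 on chromosome 8, list 2 held 2208 and 1734, and list 3 held 2187 and 1740. The total number of reads is unknown, so pileups are not scaled for depth and no counting interval was computed. Positions follow the authors' lists, for which the sources used here name no genome build, and no gene was assigned to a position.

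TCF21 regions covered chromosomes 6 and 8 to a like extent. Chromosome 6 had 41.4 reproducible regions per Mb over a span of 35.4 Mb, and chromosome 8 had 39.2 per Mb over 29.9 Mb, the span being taken to the end of the last peak. Of 3075 joined regions on chromosome 6, 47.6% held a peak of every list, and of 2438 on chromosome 8, 48.2% did. The share over all joined regions of the series was 46.5%, so both chromosomes stood near the background of the lists. A further 543 regions on chromosome 6 and 429 on chromosome 8 had peaks of 2 lists. Regions of a single list numbered 1067 on chromosome 6, with 370, 337 and 360 from lists 1, 2 and 3, and 835 on chromosome 8, with 327, 235 and 273.

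Peak density differed between the chromosomes by more than the spread of the paired differences. Lists 1, 2 and 3 had 64.3, 62.3 and 61.7 peaks per Mb on chromosome 6, against 62.0, 57.9 and 58.1 on chromosome 8. Chromosome 6 was denser in every list, although its lowest value lay below the highest value of chromosome 8. The difference was 3.45 ± 1.04 peaks per Mb (mean and SD, n = 3 lists; exact sign-flip permutation test, two-sided p = 0.25, adjusted p = 0.30), and 1.58 with peaks of a q-value of at most 1e-05. With 3 lists, 0.25 is the smallest p that this test can give, so no contrast between chromosomes can pass a threshold of 0.05. All adjusted p-values of these contrasts are Benjamini-Hochberg values over 18 tests, 6 measures in 3 contrasts.

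Set against the other autosomes, the answer depended on which of them were used. The 29 other autosomes together had 58.7, 54.95 and 55.9 peaks per Mb in lists 1, 2 and 3. Chromosome 6 exceeded them by 6.30 ± 0.944 and chromosome 8 by 2.85 ± 0.538 peaks per Mb (n = 3, exact p = 0.25, adjusted p = 0.30 each), and at that q-value limit chromosome 6 did so by 3.81. Against the 4 other autosomes of 20 to 50 Mb alone, which had 64.7 ± 2.27 peaks per Mb, the differences were −1.95 on chromosome 6 and −5.39 on chromosome 8. The direction thus turned with the set compared. The 4 autosomes of 20 to 50 Mb were not alike. Chromosomes 7, 9, 10 and 11 had 39.6, 46.2, 49.1 and 37.9 reproducible regions per Mb, over spans of 36.9, 24.1, 20.4 and 20.2 Mb. Chromosomes 6 and 8, with 41.4 and 39.2 per Mb, lay within that range. Among the 27 autosomes with at least 100 reproducible regions, chromosome 6 ranked 17 and chromosome 8 ranked 20 by regions per Mb, counted from the densest.

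**Figure D1:**
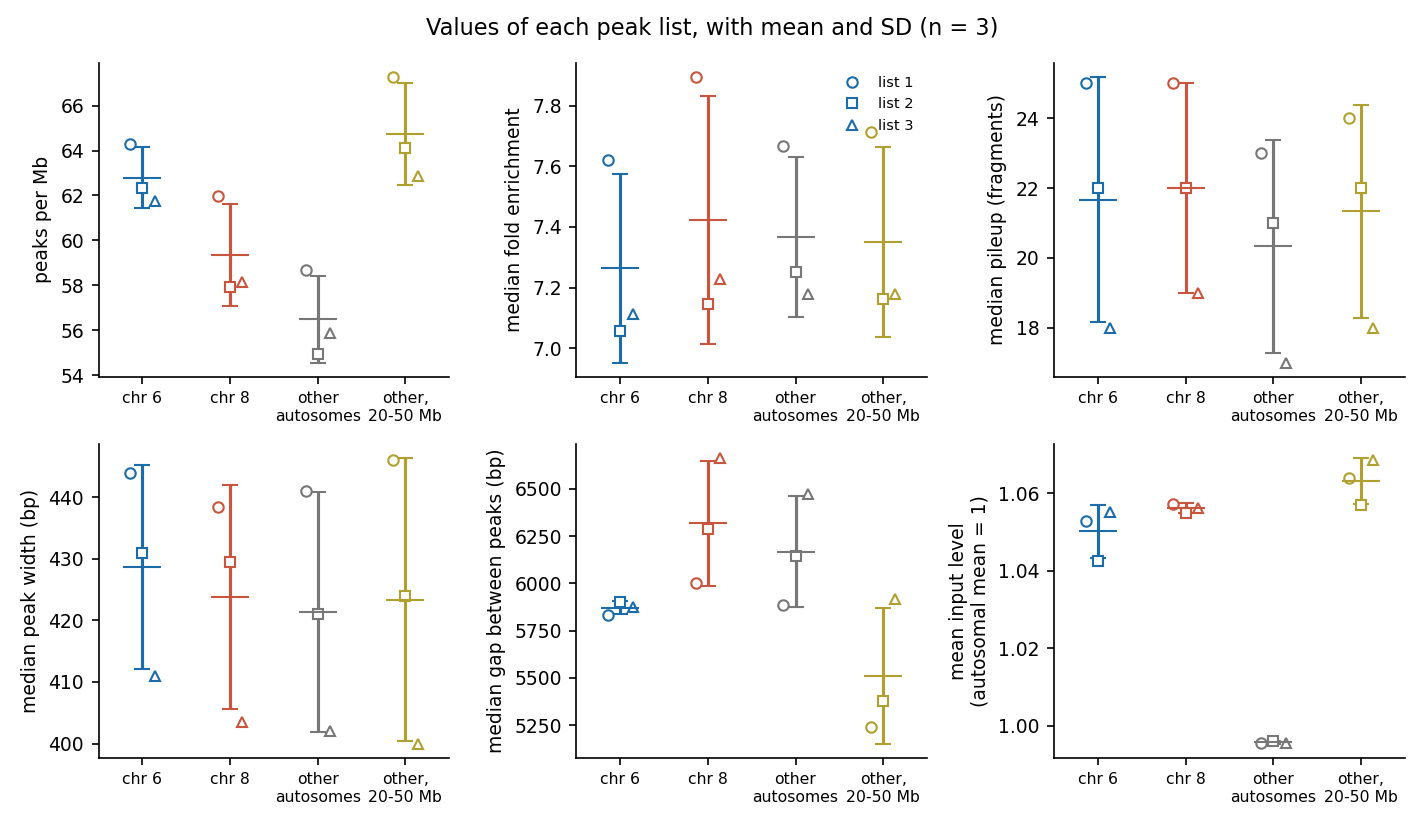
Values of the 3 peak lists for chromosome 6, chromosome 8, the 29 other autosomes and the 4 other autosomes of 20 to 50 Mb (points are lists, bars are mean and SD; axes do not start at 0). The mean peak density of chromosomes 6 and 8 lies above that of the 29 other autosomes together and below that of the 4 of 20 to 50 Mb together. The mean input level of both is near 1.05, against 0.996 in the other autosomes and 1.06 in those of 20 to 50 Mb.

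Along each chromosome the regions were spread unevenly. The 35 full 1-Mb windows of chromosome 6 held a median of 40 reproducible regions, with quartiles of 26 and 51.5 and a range of 7 to 88. The 29 full windows of chromosome 8 held a median of 35, with quartiles of 26 and 53 and a range of 9 to 92. No window of either chromosome was without a region. The variance of these counts was 8.97 times their mean on chromosome 6 and 10.8 times on chromosome 8. The densest 9 windows of chromosome 6 held 40.5% of its regions, and the densest 8 of chromosome 8 held 44.2%.

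The densest window of chromosome 6, from 23000001 to 24000000, held 88 regions and had 128, 118 and 117 peaks in lists 1, 2 and 3. A further 3 windows followed at 72 regions each, starting at 8000001, 15000001 and 27000001. The last of these had 52 of its 72 regions in clusters and a median fold enrichment of 8.73 ± 0.448 (SD, n = 3). Fold enrichment is the authors' ratio of the fragment pileup at the summit to the local input level, and the pileup is the number of fragments stacked there. In chromosome 8 the window from 4000001 to 5000000 stood out with 92 regions and with 130, 125 and 128 peaks. It was followed by the windows starting at 7000001, with 69 regions, and at 21000001, with 68. The counts of the 3 lists ordered the windows alike, with a Spearman's rho between lists of 0.952 to 0.978 on chromosome 6 and 0.968 to 0.985 on chromosome 8, as a description over 35 and 29 windows.

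The sparsest windows lay in different places on the chromosomes. On chromosome 6 they were in its first part, with 7 regions from 6000001 to 7000000 and 8 from 3000001 to 4000000. On chromosome 8 the windows from 8000001 to 9000000 and from 17000001 to 18000000 held 9 regions each, and the first window held 10. Sparse windows were not uniformly weak. The 9 regions in the window from 17000001 on chromosome 8 had a median fold enrichment of 10.7 ± 1.54 and those from 8000001 one of 8.58 ± 1.06, while those of its first window had 5.87 ± 0.277 (SD, n = 3).

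**Figure D2:**
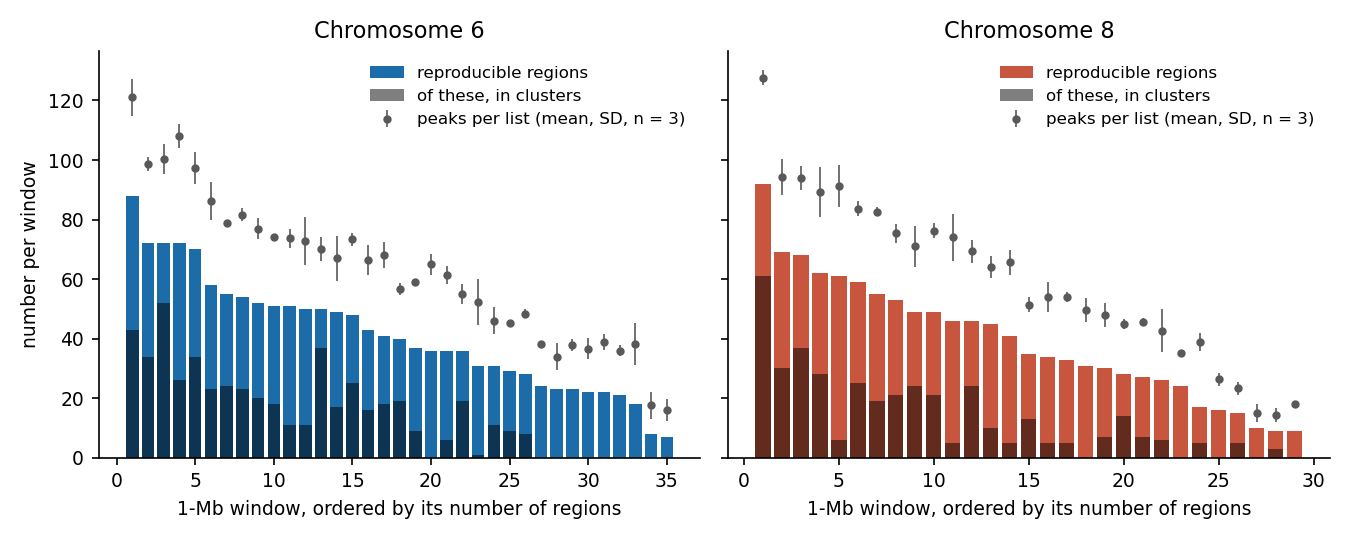
Reproducible regions in each full 1-Mb window of chromosome 6 (35 windows) and chromosome 8 (29 windows), ordered by their number (coloured bars), those of them in clusters (dark bars) and peaks per list (points, mean and SD, n = 3). A single window leads on each chromosome, with 88 regions on chromosome 6 and 92 on chromosome 8, and the counts run down to 7 and 9.

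Divided into 3 equal parts, chromosome 6 was sparsest at its start and chromosome 8 in its middle. Chromosome 6 had 33.4 regions per Mb before 11.8 Mb, 43.9 between there and 23.6 Mb, and 46.8 in the rest. Its peaks per Mb were 51.1 ± 0.636, 68.3 ± 1.22 and 68.9 ± 2.45 in these parts (SD, n = 3), so the first part stood apart and the other parts differed by less than their spread. Chromosome 8 had 42.3 regions per Mb before 9.98 Mb, 31.5 between there and 19.95 Mb, and 43.9 in the rest, with 62.9 ± 1.37, 49.0 ± 2.28 and 66.2 ± 3.30 peaks per Mb. The middle part of chromosome 8 lay below both others in every list.

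Some stretches held no reproducible region at all. The longest on chromosome 6 ran 720 kb from 5999031 to 6719480, and lists 1, 2 and 3 had 3, 6 and 6 peaks in it, none with a fold enrichment above 6.16. A stretch of 602 kb followed at 3668632 to 4271038. The longest on chromosome 8 ran 885 kb from 8340124 to 9224624 and held a single peak in list 1, none in list 2 and a single peak in list 3, with fold enrichments of at most 2.57. It includes 632 kb without any peak of any list. Whether the assembly has usable sequence there was not examined.

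The spacing of neighbouring regions was similar on both chromosomes. The median distance between the edges of neighbouring reproducible regions was 8.19 kb on chromosome 6, with quartiles of 2.70 and 24.5 kb, and 9.09 kb on chromosome 8, with quartiles of 2.62 and 24.3 kb. Of these distances, 54.6% on chromosome 6 and 52.9% on chromosome 8 were at most 10 kb, against 52.1% on the other autosomes. The other autosomes of 20 to 50 Mb had 54.5%, with a median distance of 8.25 kb. Distances over 100 kb numbered 63 on chromosome 6 (4.30%) and 55 on chromosome 8 (4.69%). The share was 5.40% on the other autosomes and 4.04% on those of 20 to 50 Mb. Counted over all peaks of a list, the median gap was 5835, 5903 and 5876 bp on chromosome 6 in lists 1, 2 and 3, against 6002, 6289 and 6662 bp on chromosome 8. It was shorter on chromosome 6 in all 3 lists, by 447 ± 314 bp (n = 3, exact p = 0.25, adjusted p = 0.30). Without list 3 the difference was −277 bp.

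Clusters were defined as runs of at least 5 reproducible regions with no distance over 10 kb between neighbours. Chromosome 6 held 71 clusters with 521 regions, or 35.6% of its regions, and chromosome 8 held 57 clusters with 391 regions, or 33.3%. Over the whole series 28.7% of reproducible regions were in such clusters, and over the other autosomes of 20 to 50 Mb 32.4%. Clusters took up 5.597% of the span of chromosome 6 and 4.79% of that of chromosome 8. On the other autosomes they took up 3.86%, and on those of 20 to 50 Mb 4.75%. The clusters of chromosomes 6 and 8 held a median of 6 regions on both, and 13 on chromosome 6 and 6 on chromosome 8 held at least 10. Chromosomes 6 and 8 ranked 11 and 14 among the 27 autosomes by the share of regions in clusters.

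The largest cluster of chromosome 6, at 25942452 to 26004910, packed 19 regions into 62.5 kb, with a median distance of 1867 bp between neighbours. It held 23 ± 2 peaks per list, and its regions had a median fold enrichment of 7.46 ± 0.617 (SD, n = 3). Its strongest region, at 25947380 to 25949276, had 214, 206 and 182 fragments at the summit in lists 1, 2 and 3, and the summits of the lists lay within 3 bp. A pair of clusters with 15 regions each followed, at 23748314 to 23799373 and at 29914631 to 29972843. In the cluster at 29914631, 6 of 15 regions were enriched at least 10-fold in each list, against 25.2% over chromosome 6. The largest cluster of chromosome 8 had 14 regions in 56.5 kb at 3724632 to 3781085, with a median fold enrichment of 6.15 ± 0.341. The clusters at 4344406 to 4394064 and at 22272789 to 22323600 followed with 13 and 12 regions. The first of these lies in the densest window of chromosome 8. Of its 13 regions, 1 reached a fold enrichment of 10 in every list, against 26.1% over chromosome 8.

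With this definition, regions in clusters lay above the others in every list for all 4 measures on chromosome 6, and for all but fold enrichment on chromosome 8. On chromosome 6 the median fold enrichment was 8.29, 7.59 and 7.58 in clusters in lists 1, 2 and 3, against 7.34, 6.82 and 6.85 outside. Clustered regions were higher in all 3 lists, by 0.811 ± 0.121 (n = 3, exact p = 0.25, adjusted p = 0.33 over the 12 tests on clusters). The other autosomes also had an excess in every list, of 0.407 ± 0.0557, and those of 20 to 50 Mb 1 of 0.244 ± 0.0679 (SD, n = 3). On chromosome 8 the values were 7.58, 7.15 and 7.67 in clusters, against 7.98, 7.15 and 7.18 outside. The lists did not share a direction there, and the difference was 0.0301 ± 0.443 (n = 3, exact p = 1, adjusted p = 1). The excess on chromosome 6 was larger than that on chromosome 8 in all 3 lists, by 0.781 ± 0.555, with an exact p = 0.25 (adjusted p = 0.33, n = 3). That order rests on the distance that defines a cluster and on list 1. With neighbours at most 5 kb apart it turned round, with an excess of 0.632 on chromosome 6 and 0.990 on chromosome 8. With 20 kb the excess was 0.595 on chromosome 6 and 0.567 on chromosome 8, and without list 1 it was 0.489 and 0.464. The difference between these excesses was 0.426 without list 2, 1.26 without list 3 and 0.434 at a q-value limit of 1e-05. With regions and clusters rebuilt without list 3 the excess on chromosome 6 was 1.06, and with peaks of a q-value of at most 1e-05 it was 0.202. At that limit the lists did not all share the direction. The comparison of clustered with other regions was added after the data had been seen.

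Clustered regions had higher pileups and wider peaks on both chromosomes, as they had on the other autosomes. On chromosome 6 the median pileup was 28, 24 and 21 fragments in clusters, against 22, 21 and 17 outside, and on chromosome 8 it was 26, 24 and 20 in clusters, against 24, 21 and 18 outside. The median peak width was 466 ± 18.5 bp in clusters and 412 ± 12.5 bp outside on chromosome 6, and 447 ± 19.6 bp in clusters and 416 ± 22.5 bp outside on chromosome 8 (SD, n = 3). The input level moved the same way. It was taken at the strongest peak of each list in a region, as a multiple of the list's mean over all autosomal peaks. It was 1.20 ± 0.00969 in clusters and 1.07 ± 0.0134 outside on chromosome 6. On chromosome 8 it was 1.22 ± 0.0361 in clusters and 1.08 ± 0.0174 outside. All of these differences had 1 direction in all 3 lists (exact p = 0.25, adjusted p = 0.33 each, n = 3). They were not particular to these chromosomes. On the other autosomes the excess in clusters was 3.33 fragments, 50.3 bp and 0.150 in the input level. On those of 20 to 50 Mb it was 2.67 fragments, 42.7 bp and 0.124, and both sets had the same direction in every list. The excess in width on chromosome 8, 31 bp, was 19 bp without list 3 and 63.7 bp with neighbours at most 5 kb apart, where the excess in pileup was 7 instead of 2.33 fragments. The part of the input level in the other differences was not tested.

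**Figure D3:**
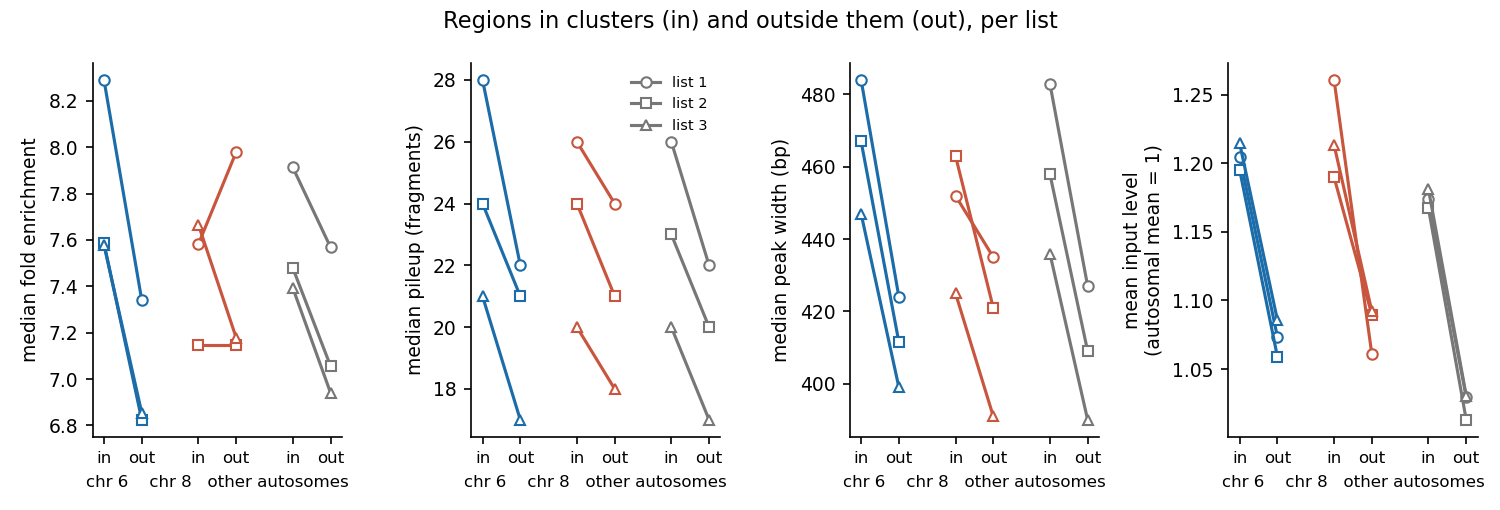
Median fold enrichment, pileup and peak width and mean input level of reproducible regions in clusters (in) and outside them (out), for chromosome 6, chromosome 8 and the other autosomes, with 1 line per list (axes do not start at 0). All lines fall from in to out except those of fold enrichment on chromosome 8, where list 1 runs the other way and list 2 is level at 7.15.

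The strengths of the regions overlapped widely between the chromosomes. The median fold enrichment of reproducible regions was 7.62, 7.06 and 7.11 on chromosome 6 in lists 1, 2 and 3, against 7.89, 7.15 and 7.23 on chromosome 8. Chromosome 6 was lower in each list, with a difference of −0.160 ± 0.0990 (n = 3, exact p = 0.25, adjusted p = 0.30). This difference is less than the spread between lists on either chromosome, which the pairing by list leaves out. It was −0.00801 without list 1, −0.0966 without list 2 and −0.0454 over all peaks of the lists, and −0.393 at a q-value limit of 1e-05. Regions enriched at least 10-fold in each list numbered 369 on chromosome 6, or 25.2%, and 306 on chromosome 8, or 26.1%, against 23.5% over the whole series. The median pileup was 25, 22 and 18 fragments on chromosome 6, against 25, 22 and 19 on chromosome 8. These medians exceeded the 23, 21 and 17 fragments of the other autosomes in each list, by 1.33 ± 0.577 on chromosome 6 and by 1.67 ± 0.577 on chromosome 8 (n = 3, exact p = 0.25, adjusted p = 0.30 each). Without list 2 both differences were 0.5, and without list 1 that of chromosome 8 was 1. Against the other autosomes of 20 to 50 Mb they were 0.333 on chromosome 6 and 0.667 on chromosome 8. Over all peaks of the lists, against all other autosomes, they were also 0.333 and 0.667.

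Regions were about as wide on both chromosomes as elsewhere. The joined regions had a median width of 547 bp on chromosome 6, with quartiles of 427 and 756 bp, and of 539 bp on chromosome 8, with quartiles of 425 and 744 bp. Widths of at least 1 kb were reached by 164 regions on chromosome 6 (11.2%) and by 117 on chromosome 8 (9.97%), and by 10.7% of those on the other autosomes. More than 3 peaks were joined in 6.08% of the regions of chromosome 6 and 6.13% of those of chromosome 8. The share was 6.40% on the other autosomes and 7.17% on those of 20 to 50 Mb. The strongest peak of each list in a region had a median width of 444, 431 and 411 bp on chromosome 6, against 439, 430 and 404 bp on chromosome 8. The difference was 4.83 ± 3.06 bp (n = 3, exact p = 0.25, adjusted p = 0.30) and turned to −2.25 bp without list 3. It was 2 bp without list 1, 1.5 bp over all peaks of the lists and 21.8 bp at a q-value limit of 1e-05.

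The most enriched region of chromosome 6, at 2094696 to 2096012, had fold enrichments of 74.1, 80.8 and 87.3 in lists 1, 2 and 3. Its pileups of 239, 233 and 218 fragments were also the highest of the chromosome on average, and the 3 summits lay within 9 bp. It stood alone, with its nearest reproducible neighbour 34.7 kb away. The region at 19324916 to 19325839 had 64.5, 72.3 and 75.8, and that at 29149334 to 29150316 had 53.4, 66.3 and 71.8. The region at 8339980 to 8340933 ranked 4 by fold enrichment, with a mean of 60.3 ± 8.93, and ranked 2 by pileup, with 221, 217 and 209 fragments. Its input level was 1.55, 1.23 and 1.29 times the autosomal mean, higher than at the regions ranked above it. The next, at 27895440 to 27896535, had the smallest spread of these regions, at 59.7 ± 2.01 (SD, n = 3).

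The most enriched region of chromosome 8, at 2230719 to 2231892, varied more in fold enrichment than in pileup. Its fold enrichments were 40.2, 75.6 and 102 in lists 1, 2 and 3, while its pileups were 242, 231 and 219 fragments. The input level there was 2.32 times the autosomal mean in list 1, 0.995 times in list 2 and 0.717 times in list 3. In fragments it was only 5.04, 2.07 and 1.15. The fold enrichment was lowest where the pileup was highest, in list 1. The region at 13303718 to 13304854 also varied, with 51.4, 84.9 and 60.6 at pileups of 180, 176 and 151 fragments. The regions at 16365839 to 16366999, at 1207113 to 1208546 and at 13692653 to 13693616 varied less, with 60.03 ± 5.82, 57.0 ± 4.68 and 55.3 ± 3.03 (SD, n = 3). Pileup was highest in list 1 and lowest in list 3 at all 5 of these regions, and fold enrichment had no such shared order. The leading region of chromosome 6 exceeded the next one in every list, and their means differed by more than the SD of either. All other neighbours in the order of means, on both chromosomes, differed by less than the larger of their SDs.

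**Figure D4:**
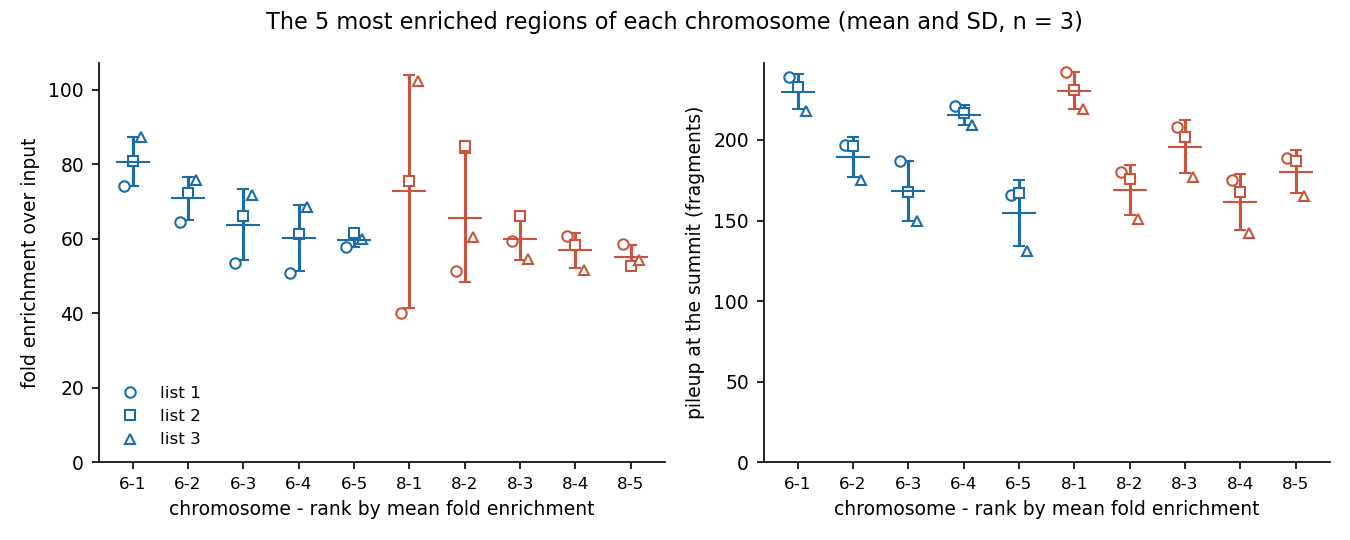
Fold enrichment and pileup of the 5 regions with the highest mean fold enrichment on chromosome 6 and on chromosome 8 in each list (points), with mean and SD (n = 3). The leading region of chromosome 8 spans 40.2 to 102 in fold enrichment and 219 to 242 fragments in pileup.

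Over all reproducible regions the pileup was more alike between lists than the fold enrichment. Spearman's rho between lists was 0.898 to 0.915 for the pileup, 0.798 to 0.815 for the fold enrichment, 0.657 to 0.685 for the peak width and 0.216 to 0.239 for the input level on chromosome 6, across 1465 regions. On chromosome 8 it was 0.905 to 0.913, 0.788 to 0.805, 0.643 to 0.686 and 0.211 to 0.286 across 1174 regions. Regions are not independent replicates, and the sources used here do not say whether lists share an input library. Of the 50 regions with the highest pileup in a list, 42 on chromosome 6 and 41 on chromosome 8 were among the highest 50 of all 3 lists. By fold enrichment, 19 on chromosome 6 and 26 on chromosome 8 were. Summits of different lists lay a median of 25 bp apart on chromosome 6 and 24 bp apart on chromosome 8, and 89.3% and 90.8% of them were within 100 bp. All these values cover only regions where peaks of all 3 lists were joined by overlap, which itself limits the distance between summits.

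The widest region of chromosome 6, at 23156758 to 23160045, was 3288 bp long and was a single peak in each list, with a fold enrichment of 43.8 ± 8.46. The next, at 18604366 to 18607419, measured 3054 bp and joined 6 peaks, with 39.3 ± 8.14. On chromosome 8 the widest region, at 22320647 to 22323600, spanned 2954 bp, joined 8 peaks and closed the cluster of 12 regions named above, with 40.0 ± 4.44. The second, at 14506874 to 14509437, spanned 2564 bp with 16.1 ± 4.39, and the strongest summits of its lists lay 715 bp apart, so the lists differ there on which summit leads.

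The most isolated regions had mean fold enrichments between 4.95 and 8.01. On chromosome 6 the region at 21431351 to 21431946 was 211 kb from its nearest neighbour, with a fold enrichment of 6.39 ± 1.17, and that at 3353387 to 3353887 was 207 kb away, with 8.01 ± 1.32. On chromosome 8 the regions at 9224625 to 9225137 and at 9404821 to 9405255 were each other's nearest neighbours at 180 kb, with 4.95 ± 1.15 and 6.40 ± 0.762 (SD, n = 3). Only 7 regions on chromosome 6 and 8 on chromosome 8 had no neighbour within 100 kb.

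The input level under the peaks was computed from each peak as (pileup + 1) / fold enrichment − 1 and divided by the mean over the autosomal peaks of its list. That mean was 2.17, 2.08 and 1.60 fragments in lists 1, 2 and 3, so input levels of single peaks rest on few fragments. Over all peaks of lists 1, 2 and 3, in reproducible regions or not, the relative input level was 1.05, 1.04 and 1.06 on chromosome 6. On chromosome 8 it was 1.06, 1.05 and 1.06, and on the other autosomes near 0.996 in each list. Both chromosomes exceeded the other autosomes in each list, chromosome 6 by 0.0545 ± 0.00706 and chromosome 8 by 0.0604 ± 0.00152 (n = 3, exact p = 0.25, adjusted p = 0.30 each). Against the other autosomes of 20 to 50 Mb the differences were −0.0130 on chromosome 6 and −0.00707 on chromosome 8, with the opposite sign. The level sat at its floor, the lowest value the peak caller uses in a list, for 2.15 ± 0.318% of the peaks of chromosome 6 and 1.57 ± 0.325% of those of chromosome 8, against 5.06 ± 0.259% on the other autosomes (SD, n = 3). On the other autosomes of 20 to 50 Mb it did so for 2.62 ± 0.210% (SD, n = 3).

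Within both chromosomes the input level was higher in denser windows, with a lower rank correlation on chromosome 8. Across its full 1-Mb windows the mean level ran from 0.795 to 1.18 on chromosome 6 and from 0.822 to 1.20 on chromosome 8. Spearman's rho between the number of regions and the input level was 0.890 over 35 windows of chromosome 6 and 0.461 over 29 windows of chromosome 8, as a description. The number counts reproducible regions and the level is a mean over all peaks of the window, so the values share lists and many peaks. The densest window of chromosome 6 had a level of 1.18 ± 0.0468 and its sparse window from 3000001 had 0.795 ± 0.112 (SD, n = 3). On chromosome 8 the highest level, 1.20 ± 0.0412, was at 24000001 to 25000000 with 61 regions, and the sparse window from 8000001 had 1.07 ± 0.103. In its last part, beyond 19.95 Mb, chromosome 8 had a level of 1.10 ± 0.00905, against 0.992 ± 0.0162 in the middle and 1.06 ± 0.00745 in the first part.

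The relation of density to strength was weak on chromosome 8, and a difference between the chromosomes was not tested. The number of regions per window had a Spearman's rho of 0.634 with their median pileup and of 0.302 with their median fold enrichment on chromosome 6, and of 0.0524 and 0.0172 on chromosome 8. The highest median fold enrichment of any window of either chromosome was at chromosome 8, 14000001 to 15000000, with 11.6 ± 1.20 and a median pileup of 33.3 ± 4.19 fragments (SD, n = 3). That window held 30 regions, of which 14 reached a fold enrichment of 10 in every list, against 26.1% over chromosome 8. A high count follows from choosing the window by its median. The lowest median of a window was at chromosome 6, 14000001 to 15000000, with 5.41 ± 0.427 from 28 regions.

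**Figure D5:**
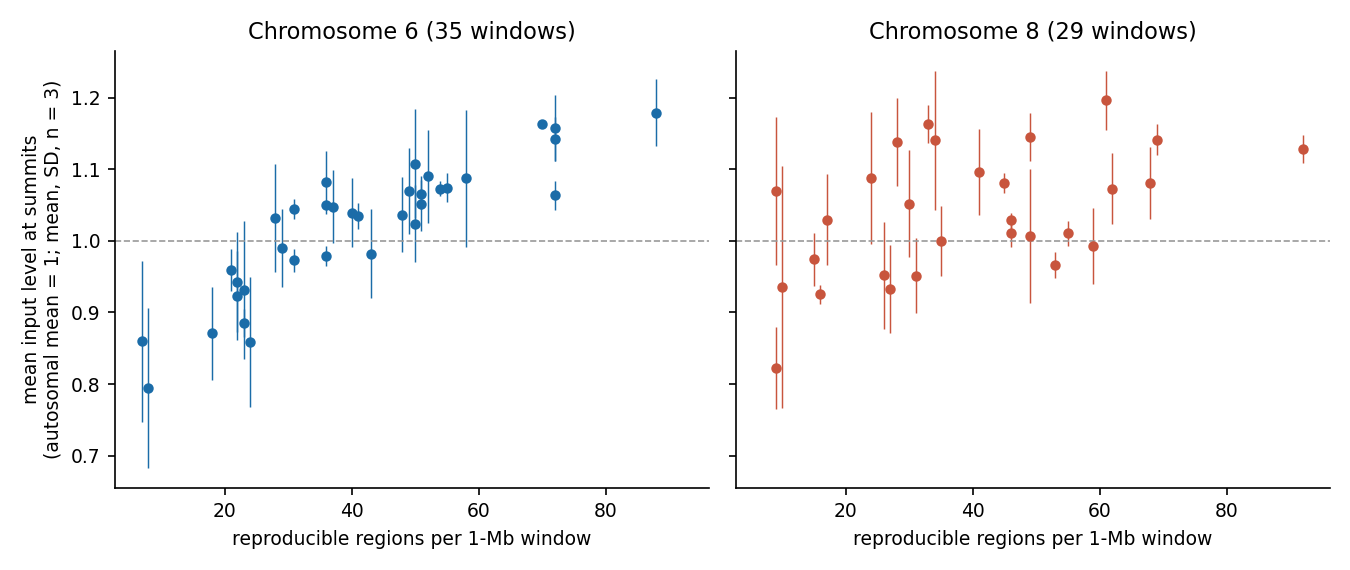
Mean input level at the summits against the number of reproducible regions in each full 1-Mb window of chromosome 6 and chromosome 8 (points are windows, bars the SD over 3 lists, dashed line the autosomal mean). On chromosome 6 the level runs from 0.795 in a sparse window to 1.18 in the densest, while sparse windows of chromosome 8 lie on both sides of 1.

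A few single regions led by their input level. On chromosome 6 the highest mean was 2.402 ± 0.393 times the autosomal mean, at 22642738 to 22643138, where the fold enrichment was 4.31 ± 0.754 at 23.0 ± 2.65 fragments. The region at 23748314 to 23748767, the first of a cluster of 15, followed with 2.35 ± 0.424. On chromosome 8 the region at 3780103 to 3781085 had a level of 4.65, 1.64 and 1.41 in lists 1, 2 and 3, or 10.1, 3.41 and 2.26 fragments. Its pileups were 34, 35 and 34 fragments and its fold enrichments 3.16, 8.16 and 10.7, so list 1 alone set it apart. The region at 25007892 to 25008596 had 2.35 ± 0.550 times the mean and a fold enrichment of 11.3 ± 1.66 (SD, n = 3).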

How the data were processed

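Tools listed in the submitters' processing notes, with no role stated, are MACS2, HOMER, bedtools, STAR 2.5.3a and Trimmomatic 0.36. The sources used here name no genome build or peak threshold. Per the file headers, each deposited list gives per peak the pileup (a signal in fragments at the summit), the fold enrichment (a ratio over the local control, with a pseudocount of 1), the −log10 of the p-value and of the q-value, and the width. The smallest −log10 p in the deposited lists was 2.00, the list limit. The Poisson p-value recomputed from pileup and recovered input level matched the deposited one within 1% plus 0.01 (−log10) for at least 99.8% of peaks on both chromosomes. Of several peaks of a list in a region, the one with the highest fold enrichment was used. Python 3.11.15, pandas 2.3.3 and numpy 2.4.6 were used. Joining, clustering and the sign-flip test were tested on simulated data. Regions named in the text are those leading by mean fold enrichment (5 per chromosome), mean pileup (3), width, isolation and input level (2 each). Clusters and windows follow their number of regions (3 each), with ties and further windows chosen after their values were seen. The chromosomes and measures were chosen with earlier results of these data known. No gene positions were used here.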

Additional observations from a re-analysis of the deposited data

How the results depend on the processing

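The smallest p of the sign-flip test is 0.25, so no contrast had a call to lose, and only directions and counts could change. Of 27 contrasts, 14 kept the sign of their mean difference under every alternative run. In some of these runs the lists did not all share that sign. An example is the fold enrichment of clusters on chromosome 6 at a q-value limit of 1e-05. The number of regions on chromosomes 6 and 8 was 1333 and 1070 where peaks had to overlap by 50% of both, 1296 and 1064 where summits had to lie within 100 bp, 2008 and 1603 in at least 2 lists, and 1607 to 1701 and 1293 to 1360 without each list. At a q-value limit of 1e-05, where fewer peaks enter, it was 948 and 762, with 32 clusters of 210 regions on chromosome 6, 20 of 125 on chromosome 8, and 57 regions in the densest window of chromosome 6. With neighbours at most 5 kb apart there were 29 clusters of 176 regions on chromosome 6 and 25 of 151 on chromosome 8, and with 20 kb the clusters held 885 and 673 regions, as the definition implies. The excess in fold enrichment of clusters on chromosome 8, 0.0301, was 0.990 at 5 kb and 0.567 at 20 kb, −0.232 at the q-value limit of 1e-05, and −0.201 to 0.464 without each list. Its difference from that on chromosome 6, 0.781 (chromosome 6 minus chromosome 8), turned to −0.359 at 5 kb, was 0.0274 at 20 kb and ran from 0.0258 to 1.26 without each list. The cause was not tested for this or any change below.

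Against the other autosomes of 20 to 50 Mb, the differences turned to −1.95 (chromosome 6) and −5.39 (chromosome 8) peaks per Mb. In the input level they turned to −0.0130 (chromosome 6) and −0.00707 (chromosome 8). The difference in the gap on chromosome 6 turned from −296 bp, against all other autosomes, to 360 bp. With the full lists, chromosome 6 differed from the other autosomes by −0.103 in fold enrichment, with a negative sign in each list. At q-value limits of 0.05 or 1e-05 this difference was 0.00904 or 0.0705. Chromosome 8 differed from the other autosomes in width by 2.5 bp with the full lists, and by −1 or −12 bp at these limits. The difference between chromosomes 6 and 8 in pileup, −0.333 with the full lists, was 0 at the limit of 0.05 and −0.5 to 0 without each list. In width it was −2.25 to 7 bp without each list. Between the same chromosomes the difference in input level was −0.00597 by the mean and 0 by the median. Without each list, chromosome 8 differed from the other autosomes by −0.0625 to 0.119 in fold enrichment and −1 to 6 bp in width. With the full lists the difference in fold enrichment was 0.0575.

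All contrasts were taken within a list, and so pair the chromosomes by list. The replicate numbers of immunoprecipitations and inputs gave no such pairs. No paired analysis was possible because values of single input samples are not in the lists, and list numbers were not tied to replicate numbers. Depth is unknown and was not varied, and pileups and input levels under 10 fragments are coarse.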
